A study of Mus musculus with 6 samples.

Results

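The elastic fibre genes described here are Eln, Fbn1, Fbn2, Fbln1, Fbln2, Fbln5, Efemp1, Efemp2, Mfap4 and Mfap5. They were chosen by name, and all 10 were found among the 23107 genes of the count table. Their RNA was measured in aortic valve tissue of outbred mice aged 4 months, in 3 control and 3 mutant libraries. The mutants, caAcvr1:Nfatc1Cre, carried a transgene for a constitutively active form of Acvr1, a BMP type I receptor, that Cre recombinase switches on. Cre was expressed from the Nfatc1 locus, so that recombination was directed to the endocardium, to the cells that descend from it and to the junction between leaflet and wall. The controls are labelled wild type, while the methods of the study allow littermates with the transgene alone, Cre alone or neither. The sources used here do not say which of these were sequenced. The methods describe the samples of each assay as independent, without saying for these libraries whether each came from 1 mouse or from pooled tissue. The p-values measure the spread between these libraries.

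An elastic fibre has a core of crosslinked elastin, the product of Eln, laid down on a scaffold of microfibrils. Fibrillins, encoded by Fbn1 and Fbn2, are the main rods of the microfibrils, and the proteins of Mfap4 and Mfap5 associate with them. Fibulins join elastin to this scaffold: Fbln5 and Efemp2 (fibulin-4) are needed to assemble elastic fibres, and Efemp1 encodes the related fibulin-3. Lysyl oxidases, such as Lox, then crosslink the elastin. In the aortic valve, elastic fibres lie mainly in the layer of the leaflet that faces the ventricle, and in the adjoining aortic wall smooth muscle cells make the elastic lamellae.

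The sequences upstream of Fbln5, Efemp2 and Efemp1 are printed for reference. Fbln5 and Efemp2 are shown because they were the members whose libraries did not overlap between the groups, and Efemp1 because its level swung widely between libraries of the same group. RefSeq windows (GRCm38.p6) were matched for 6 of the 10 members, and for these genes the window of the most upstream start site is printed. Each line holds the 250 bases before the start on the strand of the gene. Capitals mark matches on either strand to CAGAC and GGCGCC, sequences that Smad proteins, the carriers of the Acvr1 signal, can bind, and to GGGCGG, a GC box.

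Fbln5 (minus strand, chr12:101819120-101819369): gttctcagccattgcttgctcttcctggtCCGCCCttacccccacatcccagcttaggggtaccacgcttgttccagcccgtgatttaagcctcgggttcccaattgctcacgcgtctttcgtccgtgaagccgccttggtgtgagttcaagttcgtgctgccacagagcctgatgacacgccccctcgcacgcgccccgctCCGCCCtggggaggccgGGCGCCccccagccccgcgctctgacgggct
Efemp2 (plus strand, chr19:5473696-5473945): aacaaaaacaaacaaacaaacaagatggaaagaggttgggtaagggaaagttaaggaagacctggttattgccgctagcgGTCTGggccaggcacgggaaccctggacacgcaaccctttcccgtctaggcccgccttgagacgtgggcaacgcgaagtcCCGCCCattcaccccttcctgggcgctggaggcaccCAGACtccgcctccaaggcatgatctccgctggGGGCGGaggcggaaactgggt
Efemp1 (plus strand, chr11:28852955-28853204): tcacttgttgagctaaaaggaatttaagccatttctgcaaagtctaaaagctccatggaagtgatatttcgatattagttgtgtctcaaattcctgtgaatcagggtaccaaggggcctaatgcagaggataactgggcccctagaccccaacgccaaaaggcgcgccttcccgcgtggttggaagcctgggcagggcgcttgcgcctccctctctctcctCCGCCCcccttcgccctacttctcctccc

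The printed Efemp2 window held 2 matches to CAGAC, 2 to GGGCGG and 0 to GGCGCC. In the Fbln5 window there were 0, 2 and 1 matches to the same letters, and in the Efemp1 window 0, 1 and 0. Start sites differed in this respect. A second window of Fbln5 held 2 matches to CAGAC, 0 to GGGCGG and 1 to GGCGCC. Another 2 windows of Efemp2, which overlap each other, each held 0 matches to CAGAC, 5 to GGGCGG and 1 to GGCGCC. Of 32536 windows of the same length, 42.2% held CAGAC, 33% held GGGCGG and 9.65% held GGCGCC. The printed windows held 0 matches to TATAAA (12.3% of all windows) and 0 to the CArG box, a sequence known from smooth muscle genes (1.48%). Such matches describe letters only, and no binding was measured.

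The libraries held 32218343 to 55728854 fragments, and the members were deeply read, from 70 counts for Fbn2 in mutant replicate 3 to 129305 for Eln in control replicate 2. Acvr1 was read at 49.1 to 67.4 CPM (counts scaled to a common library size, with TMM factors) in the controls and 49.9 to 57.9 CPM in the mutants. The mutants thus showed no excess of Acvr1 counts that would go with the label, at a 0.928-fold level with a 95% interval of 0.74 to 1.16. Whether reads of the transgene entered these counts was not tested. Nfatc1, the locus that drives Cre, was read at 116 to 161 CPM in the controls and at 133 to 176 CPM in the mutants. Markers of interstitial cells and fibroblasts were read in every library, with Pdgfra at 144 to 255 CPM, but so were those of neighbouring tissues. The first gene of the cardiac muscle list, Myh6, ran from 2892 CPM in control replicate 2 to 11391 CPM in mutant replicate 1. That of the smooth muscle list, Myh11, ran from 325 CPM in mutant replicate 1 to 2367 CPM in control replicate 2. These 2 libraries stood apart from the others in several lists, and the counts of members and the values of several genes are also given without them.

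When mutants were compared with controls, 0 of the 10 elastic fibre genes passed an adjusted p of 0.05 in edgeR's quasi-likelihood test, as did 0% of the 15354 genes tested. At an unadjusted p under 0.05 there was 1 member, Efemp2, against 3.45% of all genes tested. In Fbln5 and Efemp2 every mutant lay below every control, an arrangement found in 4.83% of all genes, and in 0 members did every mutant lie above, against 4.04% of all genes. In 7 members the mutants were lower and in 3 higher by the fitted value, with a median log2 fold change of -0.23, beside 0.0097 over all genes tested. This balance depended on single libraries and on the fit. With all 6 libraries kept, limma-voom with sample quality weights gave 5 lower and 5 higher (median -0.0017). The smooth muscle covariate described below gave 3 lower and 7 higher (median 0.19). The other alternatives that kept all 6 libraries gave 7 lower and 3 higher. Without mutant replicate 3, 9 members were lower (median -0.42), and without control replicate 1, 8 were (median -0.43). With both control replicate 2 and mutant replicate 1 left out, 3 members were lower and 7 higher, with a median of 0.11 (-0.0046 over all genes), and without control replicate 2 alone 5 were lower and 5 higher, with a median of 0.019. In tissue RNA of this kind, fewer cells of a type and less RNA per cell cannot be told apart.

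Elastin, the elastic core of the fibre, is encoded by Eln (chromosome 5, 134702593 to 134747323 of GRCm38, the assembly also called mm10). Eln was read at 1050, 2557 and 1286 CPM in control replicates 1, 2 and 3, and at 528, 1541 and 967 CPM in mutant replicates 1, 2 and 3. Control replicate 2 was the highest and mutant replicate 1 the lowest, and mutant replicate 2 lay above the other controls, so that the groups overlapped. The fitted log2 fold change of Eln (mutant over control, as for every gene that follows) was -0.69, with a standard error (SE) of 0.48 and an edgeR adjusted p = 0.999. This corresponds to a 0.62-fold level with a 95% interval of 0.283 to 1.36. The control mean was 1631 ± 811 CPM and the mutant mean 1012 ± 508 CPM (SD, n = 3 each), a difference smaller than the SD of the controls. Its log2 fold change was -1.13 without mutant replicate 2, -0.20 without control replicate 2 and 0.10 without both control replicate 2 and mutant replicate 1. Eln alone took 0.0515% to 0.266% of all counts in a library. An annotated antisense gene, Gm30003, overlaps an Eln exon, and fragments from the opposite strand are not told apart without strand information.

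**Figure D1:**
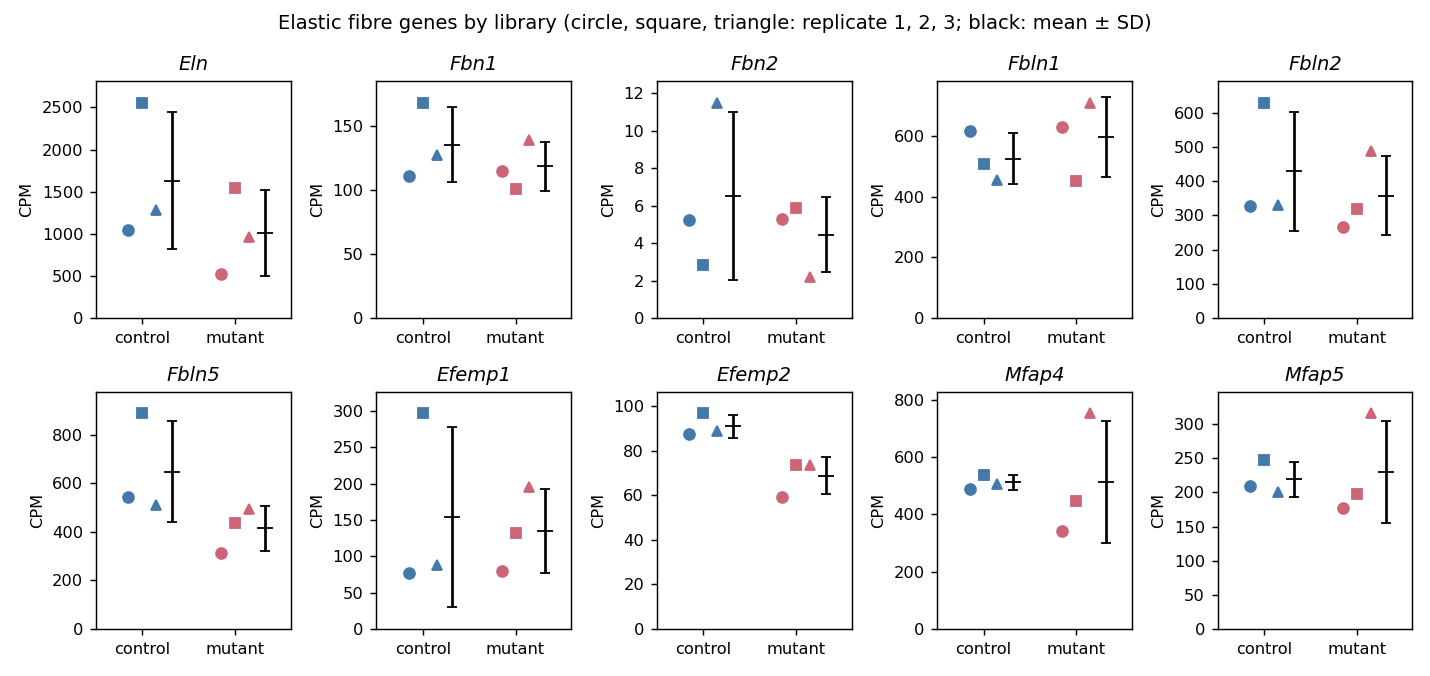
Level of each elastic fibre gene in CPM (vertical axes, from 0) in 3 control libraries (blue) and 3 mutant libraries (red), with the mean and SD of each group in black. Only in the Fbln5 and Efemp2 panels do the mutants all lie below the controls, and control replicate 2 (blue square) is the highest library in 6 of the 10 panels.

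Fbn1 (chromosome 2, 125300594 to 125507993) encodes fibrillin-1, the main fibrillin of adult microfibrils. It was read at 111, 168 and 127 CPM in the controls and at 115, 101 and 139 CPM in the corresponding mutants. The groups overlapped, with the highest and the lowest value both in replicate 2 of their group. For Fbn1 the log2 fold change was -0.20 (SE 0.19, 95% interval -0.64 to 0.24), and -0.011 without control replicate 2. On the linear scale the interval reached from 0.642-fold to 1.18-fold.

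Fbn2 (chromosome 18, 58008623 to 58210487) encodes fibrillin-2, which is best known from embryonic microfibrils. It was the lowest member, with 281, 143 and 527 counts in the controls and 274, 233 and 70 in the mutants. In CPM these were 5.24, 2.83 and 11.5 against 5.29, 5.89 and 2.2. Control replicate 3 was the highest library and mutant replicate 3 the lowest, and the groups overlapped. Fbn2 had a log2 difference of -0.54 (SE 0.57, edgeR adjusted p = 0.999), and it was -0.89 without control replicate 2 and 0.15 without control replicate 3. The long non-coding RNA gene Gm26507 overlaps Fbn2 on the opposite strand, and Gm9913 overlaps Fbn1 in the same way.

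Of the fibulins, Fbln5 (chromosome 12, 101746565 to 101819055) encodes the member that binds elastin and lysyl oxidase-like 1. It was read at 542, 888 and 512 CPM in the controls and at 313, 435 and 495 CPM in the mutants. The mutants all lay below the controls, but the nearest pair, control replicate 3 and mutant replicate 3, were close together. Fbln5 gave a log2 fold change of -0.64 (SE 0.27, 95% interval -1.29 to 0.0049, edgeR adjusted p = 0.999). It was -0.34 without control replicate 2 and -0.18 without both control replicate 2 and mutant replicate 1.

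Efemp2 (chromosome 19, 5473954 to 5482517) encodes fibulin-4, which brings lysyl oxidase to elastin. Its levels were 87.4, 96.7 and 88.6 CPM in the controls and 59.3, 73.4 and 73.5 CPM in the mutants, and no mutant reached the lowest control. Efemp2 was read at 90.9 ± 5.04 CPM (SD, n = 3) against 68.7 ± 8.18 CPM (SD, n = 3), a difference larger than the SD of either group. The log2 fold change of Efemp2 was -0.40 (SE 0.12, 95% interval -0.68 to -0.13), a 0.756-fold level. Its unadjusted p was 0.00995, and over all genes tested its adjusted p was 0.999 in edgeR and 0.449 in DESeq2. Leaving out 1 library at a time kept it between -0.46 and -0.31, and it was -0.26 without both control replicate 2 and mutant replicate 1.

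Efemp1 (chromosome 11, 28853204 to 28926743), which encodes fibulin-3, was read at 77.4, 297 and 87.5 CPM in the controls and at 79.3, 132 and 195 CPM in the mutants. Control replicate 2 lay above all mutants, and the other controls lay close to the lowest mutant. Efemp1 had a log2 fold change of -0.19 (SE 0.57, 95% interval -1.53 to 1.16). It turned to 0.72 without control replicate 2 and to 0.087 without mutant replicate 1, and with both left out it was 0.99.

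Fbln1 (chromosome 15, 85205949 to 85286535) encodes fibulin-1, a protein of elastic tissue and basement membranes. It was read at 615, 507 and 453 CPM in the controls and at 628, 450 and 709 CPM in the mutants, with overlapping groups. Its log2 fold change was 0.18 (SE 0.21, 95% interval -0.33 to 0.69), and it was 0.038 without mutant replicate 3. Among the 5 fibulins Fbln1 had the one positive fitted value, but Fbln2 and Efemp1 turned positive without control replicate 2.

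Fbln2 (chromosome 6, 91212455 to 91272540), which encodes fibulin-2, was read at 326, 629 and 330 CPM in the controls and at 266, 319 and 488 CPM in the mutants. Control replicate 2 was the highest library, as in Efemp1 and Fbln5, and mutant replicate 3 the next. Fbln2 showed a log2 fold change of -0.26 (SE 0.33), and it turned to 0.13 without control replicate 2.

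Mfap4 (chromosome 11, 61485431 to 61488900) encodes a microfibril-associated protein that also binds elastin. It was read at 489, 539 and 506 CPM in the controls, a narrow range, and at 341, 447 and 753 CPM in the mutants. The mutants lay on both sides of the controls, and their SD was 214 CPM (n = 3) against 25.6 CPM (n = 3) in the controls. The fitted log2 fold change of Mfap4 was 0.006 (SE 0.29, 95% interval -0.67 to 0.68), and -0.38 without mutant replicate 3. Mfap4 overlaps an exon of Mapk7, a gene on the opposite strand that was read with 633 to 2127 counts per library, far below Mfap4.

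Mfap5 (chromosome 6, 122505845 to 122529290) encodes the microfibril-associated glycoprotein MAGP-2. It was read at 209, 248 and 200 CPM in the controls and at 177, 197 and 316 CPM in the mutants. As in Mfap4, mutant replicate 1 was the lowest library and mutant replicate 3 the highest. The log2 fold change of Mfap5 was 0.07 (SE 0.23), and it turned to -0.23 without mutant replicate 3.

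The level of each member was also taken per kilobase of exon, so that genes of different length could be compared. By this measure Eln was the highest member, with 343 ± 180 CPM per kilobase (SD, n = 6), followed by Mfap4 with 286 ± 76 (SD, n = 6). Mfap5 and Fbln1 came next with 149 ± 33.6 and 137 ± 25.9 CPM per kilobase, and Fbln5, Fbln2 and Efemp1 lay at 87.5 ± 31.8, 82.1 ± 28.8 and 71.1 ± 42.8 (SD, n = 6 each). Efemp2 was lower at 26.5 ± 4.52 CPM per kilobase, Fbn1 lower again at 10.6 ± 2 and Fbn2 lowest at 0.497 ± 0.297 (SD, n = 6 each). Groups are mixed in these means.

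Neighbours in this order, 9 pairs, were compared within libraries. The order was set from the same 6 libraries, so the comparison is a description and no p is given. In 4 pairs all 6 libraries had the first gene higher: Mfap4 over Mfap5, Efemp1 over Efemp2, Efemp2 over Fbn1, and Fbn1 over Fbn2. The mean log2 difference was 4.59 between Fbn1 and Fbn2 (SD 1.01, n = 6), 1.33 between Efemp2 and Fbn1 (SD 0.26, n = 6) and 0.92 between Mfap4 and Mfap5 (SD 0.13, n = 6). In each of these pairs the difference was larger than its SD, as it was between Efemp1 and Efemp2 (1.25, SD 0.74, n = 6). Eln and Mfap4 traded places, with Eln higher in 3 of 6 libraries, and so did Mfap5 and Fbln1 (4 of 6), Fbln5 and Fbln2 (4 of 6), and Fbln2 and Efemp1 (5 of 6). These 4 pairs differed by less than the SD of the difference. Fbln1 lay above Fbln5 in 5 of 6 libraries, all but control replicate 2, by 0.69 (SD 0.62, n = 6). With coding length in place of exonic length, Mfap4 came before Eln and Fbln5 before Fbln1.

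**Figure D2:**
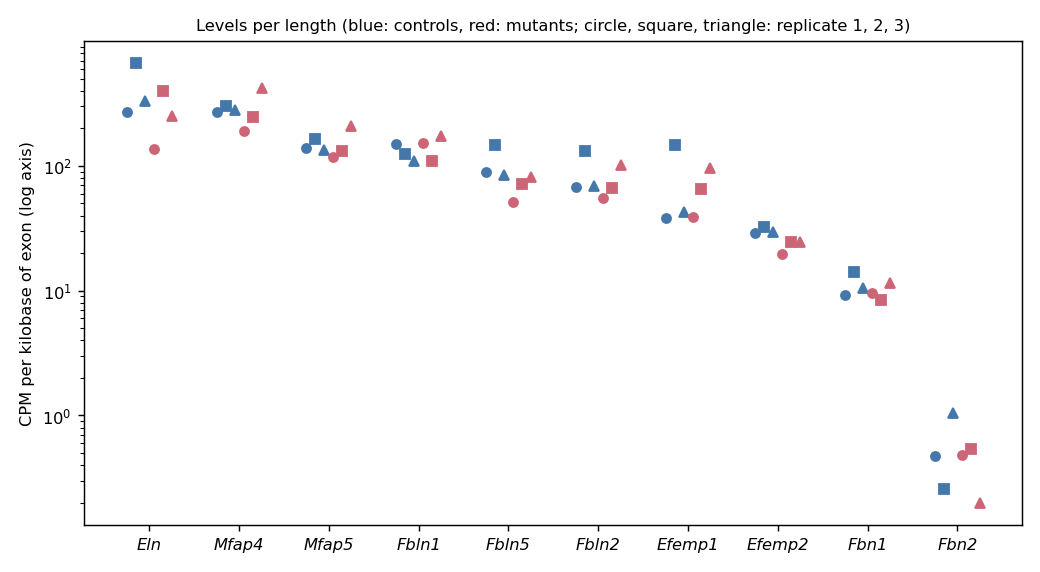
CPM per kilobase of exon (log axis) of the 10 elastic fibre genes, ordered by their mean, in 3 control libraries (blue) and 3 mutant libraries (red). Eln and Mfap4 overlap at the top, Fbn1 lies between 8.39 and 14 CPM per kilobase, and Fbn2 lies below every other member in all 6 libraries.

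Ratios of members within a library do not depend on library size, and 3 were computed. The ratio of Eln to Fbn1 per kilobase was 29.4, 47.5 and 31.5 in the controls and 14.3, 47.6 and 21.7 in the mutants. The second replicate of each group had nearly the same ratio, and the other mutants lay below all controls. The log2 difference, mutants minus controls, was -0.52 (exact permutation test, two-sided p = 0.5). Leaving out mutant replicate 1 gave -0.13, and leaving out mutant replicate 2 gave -1.0. For Fbn2 to Fbn1 the ratios were 0.0513, 0.0183 and 0.0979 in the controls and 0.05, 0.0636 and 0.0172 in the mutants. For Fbln5 to Eln they were 0.328, 0.221 and 0.253 in the controls and 0.376, 0.179 and 0.325 in the mutants. Both sets overlapped, with log2 differences of -0.25 (exact permutation test, two-sided p = 0.7) and 0.088 (exact permutation test, two-sided p = 0.9). With 3 libraries against 3, this test cannot give a p under 0.1. These last directions rested on single libraries: Fbn2 to Fbn1 was 0.31 without control replicate 3 and 0.32 without mutant replicate 3, and Fbln5 to Eln was -0.13 without mutant replicate 1, -0.04 without control replicate 2 and -0.02 without mutant replicate 3.

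The other genes of the pathway were taken from a list of 36, of which 35 could be tested. In edgeR 0 of these passed an adjusted p of 0.05 in either direction, and 3 (Mmrn2, Vtn and Ltbp1) had an unadjusted p under 0.05, as did 3.45% of all genes. Every mutant lay below every control in 4 of the 35 (Emilin1, Mmrn2, Vtn and Ltbp1), or 11.4%, and above in 1 (Hmcn1), or 2.86%, beside the 4.83% and 4.04% of all genes given above. The median log2 fold change of the list was -0.093, with 14 genes higher and 21 lower by the fitted value. Without control replicate 2 and mutant replicate 1 it was 0.055, with 19 higher and 16 lower. Elane, neutrophil elastase, was the gene not tested, with 0 CPM in 5 libraries and 0.157 CPM in mutant replicate 3.

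**Figure D3:**
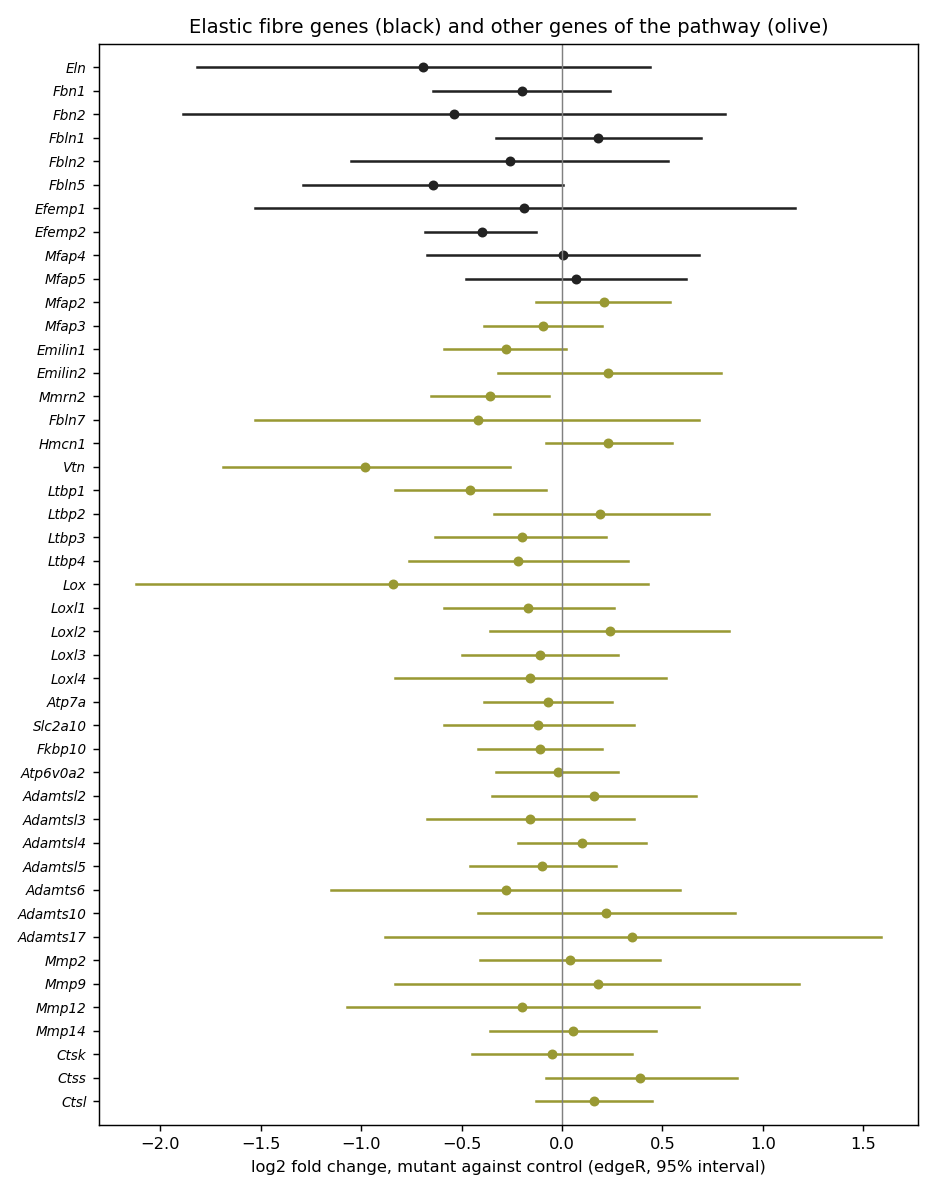
Log2 fold change of mutants against controls (horizontal axis) with its 95% interval from edgeR, for the 10 elastic fibre genes (black) and 35 other genes of the pathway (olive). Among the members the interval of Efemp2 alone lies below 0, and among the other genes those of Mmrn2, Vtn and Ltbp1 do, before any adjustment for the number of genes.

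Among the 8 microfibril-associated and emilin genes, Mmrn2, the endothelial member of the emilin family, was read at 206, 204 and 220 CPM in the controls and at 152, 189 and 150 CPM in the mutants. Its log2 fold change was -0.36 (SE 0.12, edgeR adjusted p = 0.999). Endothelial markers overlapped between the groups, with sums of 1852 to 2557 CPM in the controls and 1974 to 2580 CPM in the mutants, and Pecam1 ran from 518 to 800 CPM. Vtn, which encodes the adhesion protein vitronectin, was read at 5.82, 5.2 and 10.3 CPM in the controls and at 3.67, 3.31 and 3.86 CPM in the mutants. Its log2 fold change of -0.98 (SE 0.30) was -0.61 without control replicate 3. Ltbp1, a latent TGF-beta binding protein that associates with microfibrils, was read at 396, 533 and 455 CPM in the controls and at 340, 369 and 299 CPM in the mutants. All mutants lay below all controls in these 3 genes, and the log2 fold change of Ltbp1 was -0.46 (SE 0.16, edgeR adjusted p = 0.999). Ltbp3, of the same family, differed by -0.20 on the log2 scale (SE 0.18), with overlapping groups. This difference was -0.055 without mutant replicate 1 and 0.052 without both control replicate 2 and mutant replicate 1.

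In the crosslinking group of 5 lysyl oxidases, the groups overlapped in all. Lox, which crosslinks elastin and collagen, was read at 32, 112 and 44.1 CPM in the controls and at 17.4, 40.3 and 47.1 CPM in the mutants. Its highest and lowest libraries were those of Eln, and its log2 fold change of -0.84 (SE 0.54) was -0.12 without control replicate 2. Loxl2 had a positive fitted value, 0.24 (SE 0.25), and -0.068 without mutant replicate 3. A list of 4 genes was named copper supply and chaperone, a name that need not describe each gene in it. In this list Fkbp10, a chaperone of elastin and collagen, had a log2 fold change of -0.11 (SE 0.13). It became -0.25 when mutant replicate 2 was left out and -0.04 when mutant replicate 1 was. The log2 fold change of Slc2a10 was -0.12 (SE 0.20), and 0.048 without mutant replicate 1. Of the 7 ADAMTS and ADAMTS-like genes, whose products bind or process microfibrils, Adamts10 gave 0.22 (SE 0.27), or -0.13 without mutant replicate 3, and Adamts6 gave -0.28 (SE 0.37), or 0.011 without control replicate 2. Of the 7 elastin-degrading genes tested, 5 were higher and 2 lower by the fitted value. Ctss, which encodes the elastolytic cathepsin S, was read at 60.4, 47.2 and 63.3 CPM in the controls and at 58.8, 95.4 and 70.1 CPM in the mutants. Its log2 fold change was 0.39 (SE 0.20, edgeR adjusted p = 0.999), or 0.18 without mutant replicate 2, and that of Ctsl, cathepsin L, was 0.16 (SE 0.12). The 8 markers of macrophages, cells rich in cathepsin S, summed to 578 to 662 CPM in the controls and to 719 to 808 CPM in the mutants, with Csf1r at 130 to 170 CPM. By the fitted value 6 of the 8 were higher and 2 lower, Cx3cr1 (log2 fold change -0.12) and Itgam (-0.10). In 3 of the 8 (Cd68, C1qa and C1qb), or 37.5%, every mutant lay above every control (4.04% of all genes). The same 3 had an unadjusted p under 0.05 (3.45% of all genes), while 0 passed after adjustment in edgeR. The part of macrophages in the level of Ctss was not tested.

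The members did not rise and fall alike from library to library. Control replicate 2 was the highest library for 6 members (Eln, Fbn1, Fbln2, Fbln5, Efemp1 and Efemp2), and mutant replicate 1 the lowest for 6 (Eln, Fbln2, Fbln5, Efemp2, Mfap4 and Mfap5). Mutant replicate 3 was the highest for Fbln1, Mfap4 and Mfap5. Together the 10 genes took 0.338%, 0.618% and 0.359% of all counts in the controls and 0.245%, 0.382% and 0.409% in the mutants. Efemp1, Fbn2 and Eln varied most, with 3.84-fold, 5.21-fold and 4.84-fold between their lowest and highest libraries, and Fbln1, Efemp2 and Fbn1 varied least with 1.58-fold, 1.63-fold and 1.67-fold.

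Markers of neighbouring tissue moved with some of these genes. The paper places genes tied to vascular smooth muscle contraction among those changed most in the mutants. The 8 smooth muscle markers summed to 7914, 14389 and 7090 CPM in the controls and to 3888, 6632 and 7226 CPM in the mutants, so that the highest and the lowest library were the same as for Eln, Fbln5 and Lox. Of the 8, 7 were lower by the fitted value in the mutants, with a median log2 fold change of -0.87. Every mutant lay below every control in 3 (Myh11, Tagln and Smtn), or 37.5%, beside 4.83% of all genes. In edgeR 0 passed an adjusted p of 0.05, and 1 (Smtn) was under 0.05 unadjusted. At an unadjusted p under 0.05 DESeq2 had 5 of the 8, beside 683 of all 15354 genes. Without control replicate 2 and mutant replicate 1 the median was -0.16, with 6 of the 8 lower. The exception over all libraries was Des, which cardiac muscle also makes. With the mean of these markers as a covariate, the log2 fold change was 0.24 for Eln, 0.027 for Fbn1, 0.39 for Fbln2 and 1.12 for Efemp1, all of which were negative without it. It was closer to 0 for Fbln5 (-0.10), Efemp2 (-0.23) and Fbln1 (0.14), and farther from 0 for Fbn2 (-1.23), Mfap4 (0.38) and Mfap5 (0.41), and 0 members were called. In this fit 3 members were lower and 7 higher, with a median of 0.19. The markers were themselves mostly lower in the mutants, so this fit cannot separate smooth muscle content from a change in the mutants. The part of smooth muscle content in the values of Fbln5, Efemp2, Ltbp1 and Lox was not tested beyond this fit.

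The 5 mesothelial markers summed to 107, 1149 and 203 CPM in the controls and to 131, 355 and 498 CPM in the mutants. Their median log2 fold change was -0.75, and 0.94 without control replicate 2. Efemp1 and Fbln2 were highest in control replicate 2 and next in mutant replicate 3, which were also the libraries with the highest sums of these markers. Msln, the first gene of that list, was read at 45.2, 310 and 75.4 CPM in the controls and at 38.3, 121 and 187 CPM in the mutants. The cardiac muscle markers went the other way in control replicate 2, with a sum of 9222 CPM against 15862 to 34248 CPM in the other 5 libraries. The 8 interstitial and fibroblast markers spanned 10837 to 14222 CPM, a narrower range. Adipocyte and cartilage markers were also present, at sums of 246 to 503 CPM and 280 to 703 CPM, with Adipoq at 9.18 to 47.6 CPM and Acan at 3.53 to 20.8 CPM. The part of these tissues in the levels of Efemp1 and Fbln2 was not tested.

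**Figure D4:**
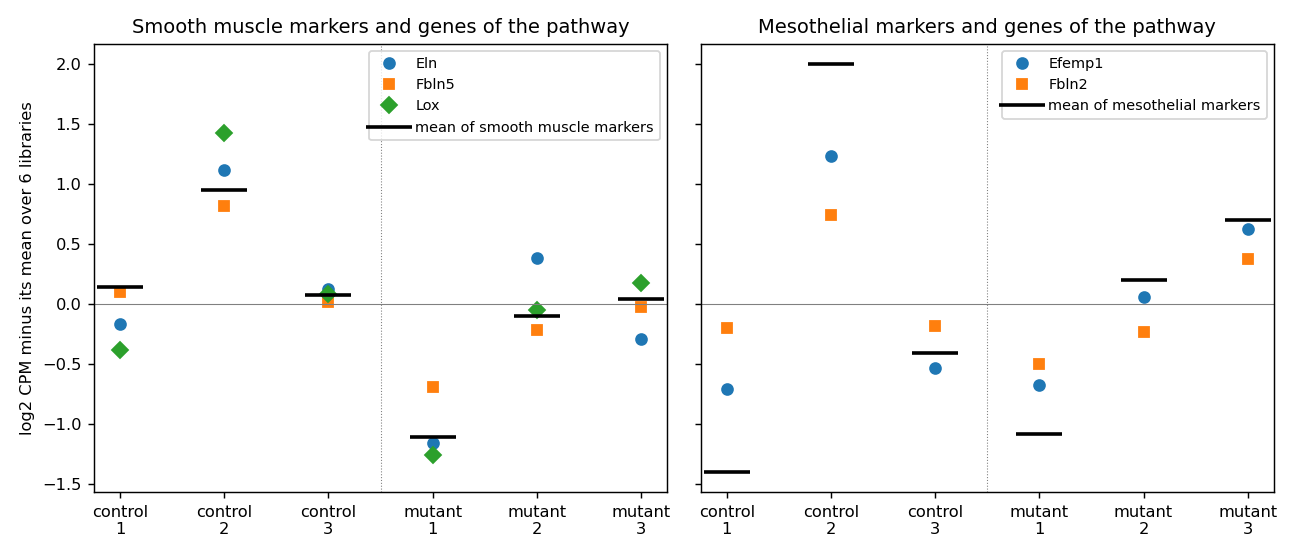
Log2 CPM minus its mean over the 6 libraries (vertical axis) in each library (horizontal axis), for Eln, Fbln5 and Lox with the mean of the 8 smooth muscle markers (left, black bars) and for Efemp1 and Fbln2 with the mean of the 5 mesothelial markers (right, black bars). The genes shown were chosen after their values were seen. Control replicate 2 is highest for each gene and both marker means, and mutant replicate 1 is lowest for the genes and the marker mean on the left.

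The genes outside the members whose pattern over the 6 libraries came closest to that of Eln were sought among 10076 genes with a mean of at least 10 CPM. Fam84a, Tnfrsf11a and Itga8 differed from Eln by a root mean square of 0.143, 0.157 and 0.17 on the log2 scale, where Eln itself had an SD of 0.757. Itga8, the integrin alpha 8 chain, was read at 408, 1061 and 400 CPM in the controls and at 184, 467 and 377 CPM in the mutants. For Fbn1, with an SD of 0.261, the closest were Celf2, Enah and Snx24, at 0.0581, 0.0599 and 0.0683. These distances are given as a description over 6 libraries.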

How the data were processed

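The authors aligned reads to mm10 and assigned fragments to genes with Cufflinks and Cuffdiff. The submitters' processing notes name TopHat2 2.0.13, Bowtie2 2.2.1 and Cuffdiff 2.1.1. The values as deposited are estimated counts per gene, not scaled for library size. The annotation version is not given in the sources used here. Columns were matched to samples by their descriptions, and values were rounded to whole numbers. A gene entered the fit if 3 of the 6 libraries or more had 10 or more counts (15354 genes, all 10 members among them), and all were fitted once in edgeR 4.0.16 under R 4.3.3, with TMM factors, the quasi-likelihood F test (two-sided, no covariates) and Benjamini-Hochberg adjustment over all genes, threshold 0.05. Standard errors and 95% intervals were derived from this test. The common biological coefficient of variation came to 0.278. The pipeline was tested on simulated data.

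Positions and exonic lengths came from GENCODE M21 (GRCm38), in which 89.6% of gene symbols were matched once. Marker levels were summed as CPM. The members, lists and tests were chosen with earlier results of these data known. The text names all members, the 2 genes with the smallest p in each of the 6 other groups of the pathway, Acvr1 and Nfatc1, the first gene of each marker list, and the 3 closest patterns to Eln and to Fbn1 by root mean square difference. Genes outside this rule were named after their values were seen. The alternatives were DESeq2 1.42.0, upper-quartile factors, other count filters, limma-voom (limma 3.58.1) with and without sample quality weights, marker scores as covariates, the replicate number as a block, and leaving out libraries. Depth limits the members little, and counts set a floor of 3 counts, or 0.0538 to 0.0931 CPM, for counting error only.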

Additional observations from a re-analysis of the deposited data

How the results depend on the processing

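Under every alternative with an adjusted p, 0 members and 0 of the other pathway genes were called. DESeq2, which called 26 genes in all, gave its smallest adjusted p among the members at 0.449. With an unadjusted p under 0.05 as the threshold the counts were 1 member and 3 other genes, with 529 of all 15354 genes. Over the alternatives they ran from 1 to 3 members and from 1 to 5 other genes. The share of all genes moved too, from 423 of 15181 without control replicate 2 to 900 of 14918 without control replicate 2 and mutant replicate 1. The replicate block gave 3 members, 4 other genes and 6 of the 8 smooth muscle markers, with 814 of all 15354 genes. DESeq2 gave 2 members and 4 other genes, with 683 of all 15354 genes. Directions were less settled: of 384 log2 fold changes of 24 named genes under alternatives, 35 reversed and 349 kept their direction. With the smooth muscle score as a covariate they turned to 0.24 for Eln, 0.027 for Fbn1, 0.39 for Fbln2, 1.12 for Efemp1, 0.11 for Ltbp3, 0.35 for Lox, 0.25 for Slc2a10 and 0.24 for Adamts6. Without both control replicate 2 and mutant replicate 1, left out together after seeing the data, they were 0.10, 0.0048, 0.30, 0.99, 0.052, 0.20, 0.19 and 0.17 for the same genes. Limma-voom gave 0.036 for Efemp1 and -0.031 for Mfap4, and sample quality weights gave 0.52 for Efemp1 and 0.067 for Fbln2. The cause was not tested. Leaving out single libraries, or that pair, gave -1.13 to 0.10 for Eln, -0.33 to 0.0048 for Fbn1, -1.04 to 0.15 for Fbn2, 0.038 to 0.35 for Fbln1, -0.55 to 0.30 for Fbln2, -0.79 to -0.18 for Fbln5, -0.54 to 0.99 for Efemp1, -0.38 to 0.27 for Mfap4, -0.23 to 0.32 for Mfap5, -0.29 to 0.052 for Ltbp3, -1.16 to 0.20 for Lox, -0.068 to 0.54 for Loxl2, -0.25 to -0.034 for Fkbp10, -0.23 to 0.19 for Slc2a10, -0.13 to 0.50 for Adamts10, -0.57 to 0.17 for Adamts6, -1.17 to -0.61 for Vtn and 0.18 to 0.54 for Ctss. Leaving out 1 library moved the log2 ratio difference of Eln to Fbn1 between -1.0 and -0.13, that of Fbn2 to Fbn1 between -0.90 and 0.32, and that of Fbln5 to Eln between -0.13 and 0.41.

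The replicate numbers are shared between the groups, and deviations of same-numbered libraries correlated at 0.373, 0.171 and 0.0194 over genes. The first was the highest of all pairings, and mutant replicate 2 also correlated best with control replicate 2. However, control replicate 2 correlated best with mutant replicate 3 (0.237), and control replicate 3 with mutant replicate 1 (0.0783). With 3 libraries per group these values cannot settle pairing, and the main fit did not treat the libraries as pairs. With the replicate block 0 members and 0 genes in all were called, and the log2 fold change turned to 0.0082 for Efemp1 and -0.075 for Mfap4. Paired differences cannot move the ratios, since with 3 complete pairs their mean is the difference of the group means.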
